A study of Mus musculus with 8 samples.

Results

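The set comprises 31 mouse genes for enzymes that make, use or break down serine, folate-bound one-carbon units, methionine, cysteine, glutamine, aspartate, proline, ornithine and the branched-chain amino acids. The members were a named list, chosen with earlier results of these data known. A probe was taken as a member's when its transcript accession maps to that gene in RefSeq, and 30 of the 31 members were found in this way, on 51 probes. All 30 were above background in at least 1 group and entered the test, among 25353 genes and transcripts tested of 45622 on the array. Pycr1, which makes proline, was not analysed here.

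Expression was measured in TEC71, an immortalized line of mouse medullary thymic epithelial cells, on 1-colour (Cy3) Agilent microarrays. Of the edited lines, clone 1 (3 arrays) and clone 3 (2 arrays) carry the T1211A mutation in Gtf2i, the gene of the transcription factor TFII-I. The control (3 arrays) is the same line transfected with a Cas9 nickase and one guide RNA. Each knock-in group is a single clone, so an effect of the mutation and a difference between clonal lines cannot be told apart, and since the labels do not say whether the arrays of a group came from separate cultures, the p-values measure only the spread between arrays, which may be technical.

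Serine is built from a glycolytic intermediate by Phgdh, Psat1 and Psph, and its conversion to glycine by the Shmt enzymes loads folate with a one-carbon unit. The folate enzymes then pass these units on to purines, thymidylate and the methionine cycle, in parallel pathways of the mitochondrion and the cytosol. Homocysteine from the methionine cycle either returns to methionine or is turned into cysteine, while glutamine and glutamate supply nitrogen for aspartate, asparagine and proline. Many of these genes are known targets of the transcription factor Atf4 in the amino acid response, and several are known targets of Myc.

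The share of probes detected well above background ran from 55.3% to 59.3% between arrays, and no spot was saturated. The brightest spike-in control read 2797 on clone 1 replicate 1, against 17164 to 30390 on the other arrays. The cause of this low reading was not tested. Values are given as relative signals, meaning the processed signal of a probe divided by the 75th percentile of its array, and differences are on the log2 scale with the standard error (SE) of the limma fit. A relative signal depends on the probe, so it compares groups for a gene and does not compare genes. The epithelial markers Epcam, Krt5, Krt14, Krt8 and Krt18 were detected on all arrays, while Aire, the regulator of mature medullary cells, was above background on 2 of 3 clone 1, 0 of 2 clone 3 and 1 of 3 control arrays. Of 9 tested thymic epithelial markers 4 (Epcam, Krt5, Cd80, Trp63) were lower in each clone than in the control, and the summed relative signal of the 11 listed markers was 316 to 363 in clone 1, 337 to 376 in clone 3 and 367 to 481 in the control. The 8 fibroblast markers summed to 0.466 to 0.625 in clone 1, 0.481 to 0.557 in clone 3 and 0.962 to 1.21 in the control, with Pdgfrb, Dcn, Lum and Thy1 not above background on any array. Of the 8, Pdgfra alone read 0.287 to 0.346 in clone 1, 0.211 to 0.241 in clone 3 and 0.738 to 0.932 in the control. Col1a2, the only other tested fibroblast marker, differed by -0.13 and 0.14 and did not pass. None of 4 tested haematopoietic markers and 1 tested endothelial marker passed in either clone. The part of these marker differences in the results below was not tested. Gtf2i itself was lower in clone 1 by a log2 difference of -0.46 and in clone 3 by -0.59, on the brightest of its 3 probes. Whether that probe covers the mutated site was not tested.

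Promoter sequence was searched for 2 short motifs, because Atf4 and Myc, known regulators of these enzymes, bind such letters. The searched letters were TGATGNAA, the core of the element read by Atf4, and CACGTG, the E-box read by Myc and related factors, each on both strands of the 300 bases around the start site in RefSeq (GRCm38.p6). Of the 31 members 28 matched a promoter entry. The Atf4-type core was in the promoters of Asns, Got1 and Pycr1, 3 of 28, while 4.51% of all 27025 genes with a promoter held it. The E-box was in those of Aldh18a1, Cbs and Ass1, also 3 of 28, with 8.09% of all genes, and no match of one motif overlapped the other. Stretches upstream of the start sites of measured members are shown, 5′ to 3′ along the gene, with the matched letters in capitals. In Got1 the core lies on the opposite strand.
Asns, chr6:7693210-7693262, minus strand: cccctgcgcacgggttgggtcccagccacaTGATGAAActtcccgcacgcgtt
Got1, chr19:43524670-43524737, minus strand: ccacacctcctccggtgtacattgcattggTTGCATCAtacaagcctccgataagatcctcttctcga
Aldh18a1, chr19:40588487-40588552, minus strand: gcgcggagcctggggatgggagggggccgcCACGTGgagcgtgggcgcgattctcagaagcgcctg
Cbs, chr17:31637399-31637455, minus strand: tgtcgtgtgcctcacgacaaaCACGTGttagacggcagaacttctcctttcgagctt
Ass1, chr2:31470204-31470269, plus strand: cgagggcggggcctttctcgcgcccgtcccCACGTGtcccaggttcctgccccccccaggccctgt

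Across the 30 measured members, more were lower than higher in clone 1, and the largest difference in each clone was that of Prodh, which starts proline breakdown. In RNA from a whole culture, fewer cells expressing a gene and less RNA per cell cannot be told apart. In clone 1, 3 members exceeded the control and 11 were below it at a limma adjusted p under 0.05, and 16 did not pass. Over all genes tested 31.1% passed in clone 1, 14.7% higher and 16.5% lower, beside 46.7% of the members. Among tested genes with a symbol, as all members have, the share was 36.2%. Since the list was chosen with earlier results of these data known, a higher share among members is no separate evidence. In clone 3, 4 members were higher and 5 lower, and 21 did not pass, a share of 30%, against 30.2% of all genes (13.3% higher and 17.0% lower). With median scaling the clone 3 split became 4 higher and 3 lower, since Mthfd1l and Aldh18a1 no longer passed, and clone 1 had 3 higher and 8 lower, without Got1, Psph and Shmt2 (limma adjusted p of 0.065, 0.054 and 0.059). Requiring detection on all 8 arrays, which drops Aldh1l1 and Ahcy, left clone 1 with 2 higher and 10 lower, while clone 3 had 3 higher and 5 lower. The median log2 difference over members was -0.19 in clone 1 and -0.14 in clone 3, beside -0.05 and -0.04 over all genes tested. Members whose arrays did not overlap with the control were 6 higher and 12 lower in clone 1, where 21.2% and 25.3% of all genes did so. They were 9 higher and 11 lower in clone 3, where 25.3% and 30.4% of all genes did so. Both comparisons use the same 3 control arrays.

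**Figure D1:**
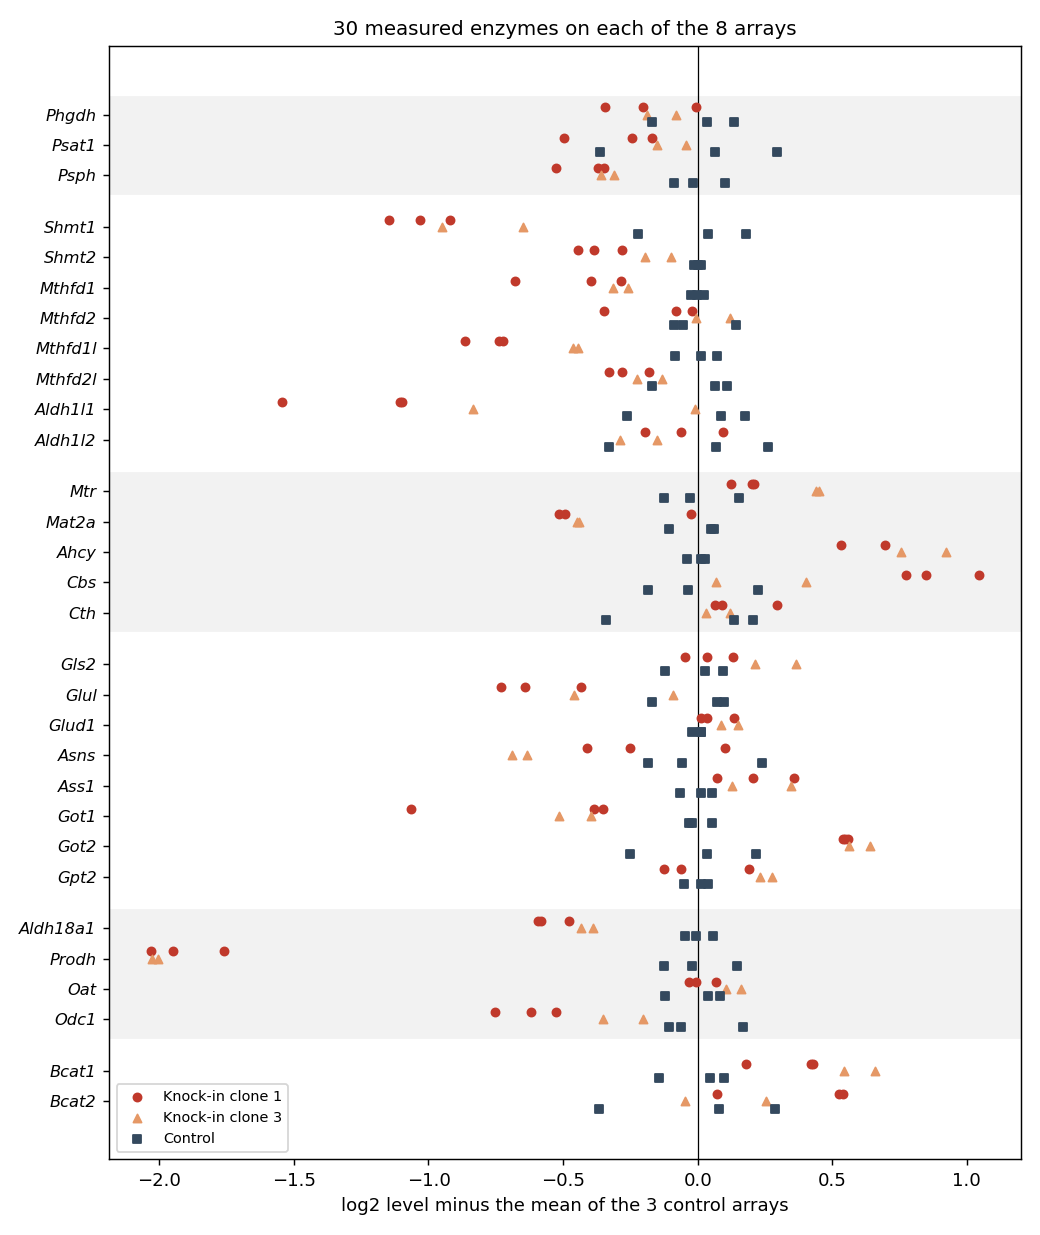
Log2 level of each of the 30 measured enzymes on the 8 arrays, as the difference from the mean of the 3 control arrays, with clone 1 as circles, clone 3 as triangles and control as squares. Shaded and open bands separate the functional groups. The Prodh points of both clones lie farthest from the control, and most serine and folate enzymes have their clone 1 points left of zero.

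**Figure D2:**
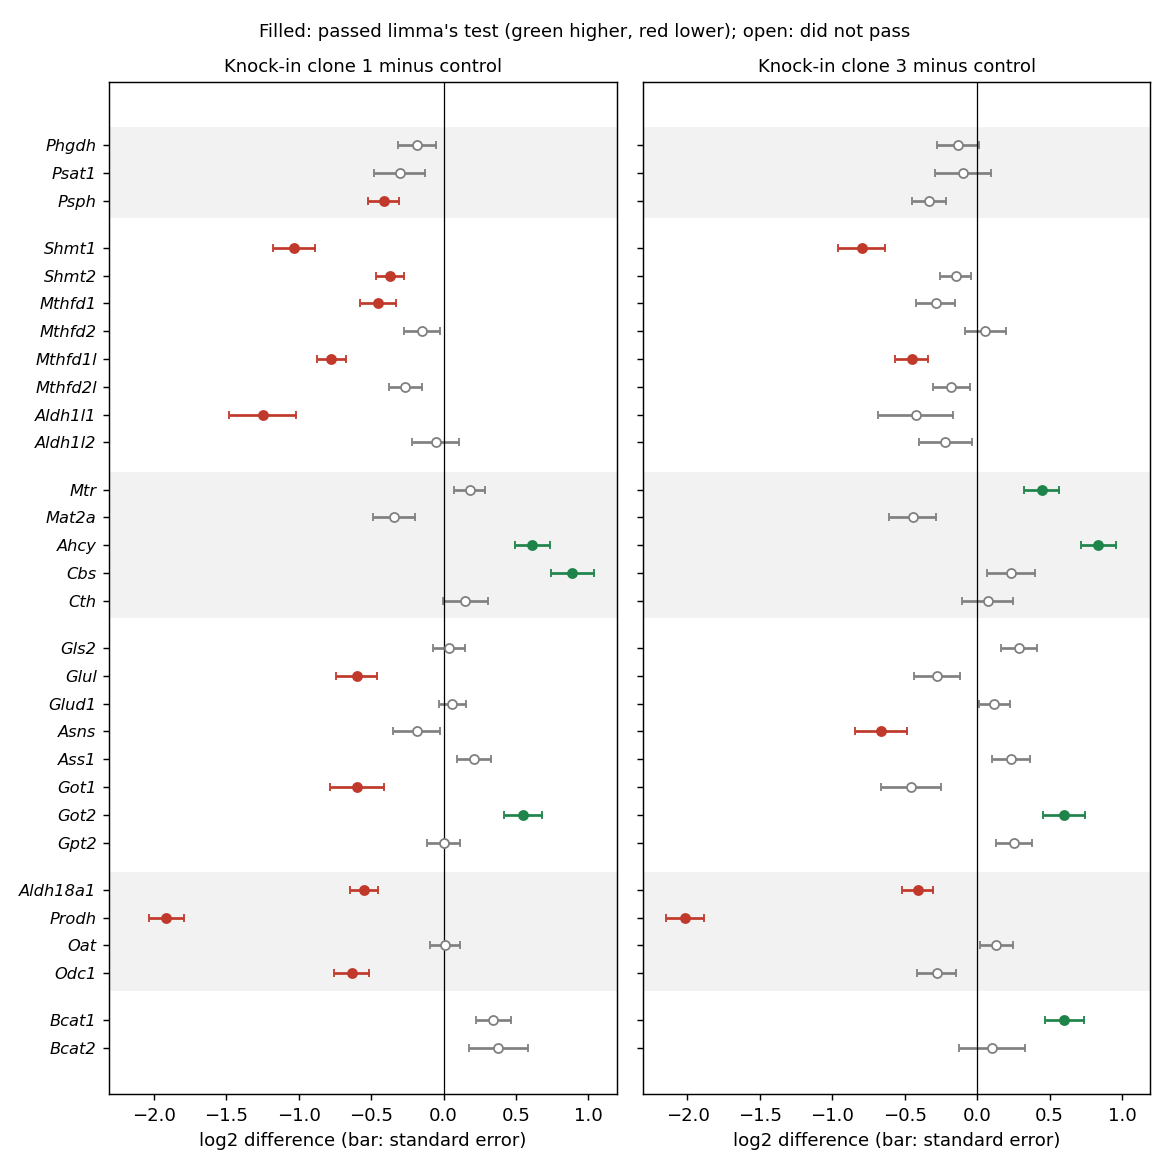
Log2 difference from the control for each enzyme in clone 1 (left) and clone 3 (right), with bars giving the standard error of the limma fit. Filled points passed at an adjusted p under 0.05, 14 in clone 1 and 9 in clone 3, and open points did not.

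The 3 enzymes of serine synthesis were little changed, with 1 of 3 lower in clone 1 and 0 of 3 called in clone 3. Of all genes 31.1% and 30.2% were called. Psph, the phosphatase of the last step, had relative signals of 20.2, 22.6 and 22.9 in clone 1 and 23.5 and 22.7 in clone 3, against 31.3, 27.5 and 28.8 in the control. All knock-in arrays lay below all control arrays. The difference was -0.41 (SE 0.11, limma adjusted p = 0.018) in clone 1, and -0.33 (SE 0.12, limma adjusted p = 0.064) in clone 3. Phgdh, which commits carbon to serine, differed by -0.18 (SE 0.13) in clone 1 and -0.13 (SE 0.15) in clone 3, and its arrays overlapped between groups. Psat1, the aminotransferase of the middle step, differed by -0.30 (SE 0.18) and -0.10 (SE 0.20) and overlapped with the control in both clones. Clone 3 lay above clone 1 on this probe, by 0.21 (limma adjusted p = 0.73). A second Psat1 probe passed in clone 1 at -0.72 (limma adjusted p = 0.0092 in a fit over all probes). The Psph call was lost without control replicate 1 (limma adjusted p = 0.062) or clone 1 replicate 1 (0.059), and Psat1 passed in clone 1 without control replicate 2 (-0.48, 0.0498).

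Among the folate enzymes 5 of 8 were lower in clone 1 and none higher, and 1 of the 5, Aldh1l1, was tested only because it is detected in the control. In clone 3 the count was 2 of 8 lower and none higher. The shares called were 62.5% and 25%, beside 31.1% and 30.2% of all genes. Shmt1, the cytosolic enzyme that splits serine into glycine and a one-carbon unit, had relative signals of 1.71, 1.85 and 2 in clone 1 and 1.96 and 2.41 in clone 3, against 3.24, 4.29 and 3.89 in the control. Every knock-in array was below every control array. Shmt1 was 2.05-fold lower in clone 1 (-1.03, SE 0.14, limma adjusted p = 0.00088) and 1.74-fold lower in clone 3 (-0.80, SE 0.16, limma adjusted p = 0.0063).

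Mthfd1l, the mitochondrial enzyme that releases formate, passed in clone 1 and in clone 3. It had relative signals of 3.58, 3.91 and 3.95 in clone 1 and 4.73 and 4.79 in clone 3, against 6.56, 6.15 and 6.84 in the control. The 3 groups did not overlap, with clone 3 between clone 1 and the control. Its difference was -0.77 (SE 0.10, limma adjusted p = 0.00061) in clone 1 and -0.45 (SE 0.11, limma adjusted p = 0.016) in clone 3. Leaving out clone 3 replicate 1 or replicate 2 moved the clone 3 call past the threshold, to limma adjusted p of 0.065 and 0.064.

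Smaller differences were seen for Mthfd1, the cytosolic enzyme with 3 folate activities, and for Shmt2, the mitochondrial partner of Shmt1. Mthfd1 had relative signals of 48.9, 52.9 and 40.2 in clone 1 and 51.7 and 53.8 in clone 3, against 65.4, 64.3 and 63.3 in the control. Shmt2 had 26, 27.9 and 24.9 in clone 1 and 29.6 and 31.6 in clone 3, against 33.9, 33.6 and 34.3 in the control. In both genes the knock-in arrays lay below all control arrays. The clone 1 differences passed at -0.45 for Mthfd1 (SE 0.12, limma adjusted p = 0.023) and -0.37 for Shmt2 (SE 0.10, limma adjusted p = 0.021), and the clone 3 differences of -0.29 and -0.15 did not. Both clone 1 calls were lost when any 1 control array was left out, with limma adjusted p of 0.055 to 0.065 for Mthfd1 and 0.051 to 0.057 for Shmt2, and also without clone 1 replicate 3 (0.064 and 0.069), and for Shmt2 without clone 1 replicate 1 (0.055).

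Aldh1l1, which disposes of cytosolic one-carbon units as carbon dioxide, was dim. Its relative signals were 0.0233, 0.0315 and 0.0316 in clone 1 and 0.0673 and 0.038 in clone 3, against 0.0767, 0.0565 and 0.072 in the control. It was not well above background on any clone 1 array, on 1 of 2 clone 3 arrays, and above it on all 3 control arrays, so it entered the test only through the control. Clone 1 was at least 2.07-fold lower than the control, where the fold is bounded by the lowest signal called well above background on each array (fitted limma adjusted p = 0.0041, from a difference of -1.25 between the measured means). With normexp background correction the difference was -0.27 and did not pass (limma adjusted p = 0.18). Clone 3 differed by -0.42 (SE 0.26) and did not pass, though it did without clone 3 replicate 1 (-0.84, limma adjusted p = 0.046).

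Among the other folate enzymes, Mthfd2, the mitochondrial dehydrogenase, differed by -0.15 (SE 0.13) in clone 1 and 0.06 (SE 0.14) in clone 3. Its relative Mthfd2l differed by -0.26 (SE 0.11) and -0.18 (SE 0.13), with limma adjusted p of 0.12 and 0.33. Aldh1l2, the mitochondrial counterpart of Aldh1l1, differed by -0.05 (SE 0.16) and -0.22 (SE 0.18). None of these 3 passed in either clone on the brightest probe. A second Mthfd2l probe passed as lower in clone 1, at -0.39 (limma adjusted p = 0.043 in a fit over all probes), and gave 0.04 in clone 3.

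In the methionine cycle and the route to cysteine, 2 of 5 members were higher in each clone and none was lower. That is 40% called, beside 31.1% of all genes in clone 1 and 30.2% in clone 3. Ahcy, which hydrolyses S-adenosylhomocysteine, had relative signals of 2.72 and 3.05 in clone 1 and 3.17 and 3.56 in clone 3, against 1.83, 1.92 and 1.9 in the control. The spot of clone 1 replicate 2 was marked as an outlier and left out, so clone 1 has 2 values here. Knock-in arrays lay above all control arrays, 1.53-fold in clone 1 (0.61, SE 0.12, limma adjusted p = 0.0075) and 1.79-fold in clone 3 (0.84, SE 0.12, limma adjusted p = 0.0021). The clone 1 call was lost without clone 1 replicate 3 (limma adjusted p = 0.053).

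Cbs, which joins homocysteine and serine at the entry to cysteine synthesis, was called in clone 1 alone. Its relative signals were 0.134, 0.141 and 0.162 in clone 1 and 0.104 and 0.0824 in clone 3, against 0.0766, 0.0691 and 0.0917 in the control. Clone 1 was above both other groups and 1.85-fold higher than the control (0.89, SE 0.15, limma adjusted p = 0.0025), while clone 3 overlapped with the control (0.23, SE 0.17, limma adjusted p = 0.34). Clone 3 minus clone 1 gave -0.65 (SE 0.17) with an unadjusted p of 0.0041 and a limma adjusted p of 0.25, so a difference between the clones did not pass. This dim gene also missed the threshold in clone 1 with normexp correction (0.35, limma adjusted p = 0.054).

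Mtr, methionine synthase, had relative signals of 0.997, 0.94 and 0.992 in clone 1 and 1.17 and 1.18 in clone 3, against 0.845, 0.959 and 0.79 in the control. Only clone 3 lay above all control arrays, by 0.45 (SE 0.12, limma adjusted p = 0.024). That call was lost without control replicate 1 or 3 or without either clone 3 array (limma adjusted p of 0.061, 0.066, 0.079 and 0.094), and with normexp correction the difference was 0.08. Mat2a, which makes S-adenosylmethionine, had 43.3, 31.3 and 30.8 in clone 1 and 32.4 and 32.3 in clone 3, against 45.6, 40.9 and 45.9 in the control. On its brightest probe the differences of -0.34 (SE 0.15) and -0.45 (SE 0.16) did not pass, with limma adjusted p of 0.11 and 0.074. Clone 1 replicate 1 stood with the control on this probe. Without clone 1 replicate 1 the Mat2a differences passed in both clones, at -0.50 (limma adjusted p = 0.017) and -0.45 (0.025). A second Mat2a probe passed as lower in both clones with all arrays in, at -0.59 and -0.40. Its limma adjusted p were 0.0058 and 0.0499 in a fit over all probes. There clone 1 replicate 1 read 27.5, below all control arrays (36.5, 41.5 and 47.2). Cth, which releases cysteine from cystathionine, differed by 0.15 (SE 0.16) and 0.07 (SE 0.18) and overlapped between groups.

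Of the 8 enzymes that handle glutamine, glutamate and aspartate, clone 1 had 1 higher and 2 lower, and clone 3 had 1 higher and 1 lower. This gives 37.5% and 25% called, beside 31.1% and 30.2% of all genes. In clone 1 the aspartate aminotransferases passed in opposite directions. Got2, the mitochondrial enzyme, had relative signals of 47.1, 47.3 and 47.6 in clone 1 and 47.7 and 50.5 in clone 3, against 33.1, 37.6 and 27.2 in the control. Got1, the cytosolic enzyme, had 16.9, 27.2 and 27.8 in clone 1 and 26.9 and 24.8 in clone 3, against 34.9, 34.7 and 36.8 in the control. Neither gene's knock-in arrays overlapped with the control, above it for Got2 and below it for Got1, and clone 1 replicate 1 was the lowest Got1 array.

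Got2 was 1.46-fold higher in clone 1 (0.55, SE 0.13, limma adjusted p = 0.013) and 1.52-fold higher in clone 3 (0.60, SE 0.15, limma adjusted p = 0.015), and its clone 3 call was lost without clone 3 replicate 2 (limma adjusted p = 0.083). Got1 was 1.52-fold lower in clone 1 (-0.60, SE 0.19, limma adjusted p = 0.040), and in clone 3 its difference of -0.45 (SE 0.21) did not pass (limma adjusted p = 0.14). The clone 1 call of Got1 was lost without any 1 control array (limma adjusted p of 0.086 to 0.11) or any 1 clone 3 array (0.054), since all groups share the spread. Without clone 1 replicate 1 the clone 3 difference of Got1 passed (limma adjusted p = 0.021).

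Asns, which makes asparagine from aspartate and glutamine, had relative signals of 64.2, 82 and 57.5 in clone 1 and 47.3 and 49.2 in clone 3, against 90.2, 67.2 and 73.4 in the control. Clone 3 was below all other arrays, at -0.66 (SE 0.18, limma adjusted p = 0.025), and clone 1 overlapped with the control (-0.19, SE 0.16, limma adjusted p = 0.45). Clone 3 minus clone 1 was -0.48 (SE 0.18, limma adjusted p = 0.41) and did not pass. The clone 3 call was lost without control replicate 1 or 3 or without either clone 3 array, with limma adjusted p of 0.071, 0.052, 0.10 and 0.089.

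Glul, glutamine synthetase, had relative signals of 0.437, 0.411 and 0.505 in clone 1 and 0.64 and 0.495 in clone 3, against 0.605, 0.729 and 0.716 in the control. Clone 1 lay below the control (-0.60, SE 0.14, limma adjusted p = 0.014) and clone 3 overlapped with it (-0.28, SE 0.16, limma adjusted p = 0.24). The other 4 enzymes of this group passed in neither clone. Gls2, a glutaminase, differed by 0.04 in clone 1 and 0.29 in clone 3. Glud1, glutamate dehydrogenase, differed by 0.06 and 0.12, and Ass1, which joins citrulline and aspartate, by 0.21 and 0.24. Gpt2, the mitochondrial alanine aminotransferase, differed by 0.00 and 0.25. The knock-in arrays of Glud1 and Ass1 lay above all control arrays in both clones, by amounts within 2 SE.

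The largest difference of the whole set was in proline breakdown. Prodh, proline dehydrogenase, which starts the oxidation of proline in mitochondria, had relative signals of 1.92, 2.03 and 2.32 in clone 1 and 1.96 and 1.93 in clone 3, against 7.21, 8.71 and 7.74 in the control. All 5 knock-in arrays were below the lowest control array by more than 3-fold, and the clones overlapped with each other. Prodh was 3.77-fold lower in clone 1 (-1.91, SE 0.12, limma adjusted p = 9.2e-06) and 4.04-fold lower in clone 3 (-2.02, SE 0.13, limma adjusted p = 1.7e-05).

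Aldh18a1, which makes the precursor of proline and ornithine from glutamate, had relative signals of 13.7, 14.7 and 13.5 in clone 1 and 15.1 and 15.6 in clone 3, against 19.8, 21.3 and 20.3 in the control. The 3 groups did not overlap. It was 1.47-fold lower in clone 1 (-0.55, SE 0.10, limma adjusted p = 0.0029) and 1.33-fold lower in clone 3 (-0.41, SE 0.11, limma adjusted p = 0.021), where the call was lost without control replicate 2 (limma adjusted p = 0.058) or either clone 3 array (0.083 and 0.068).

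Odc1, ornithine decarboxylase and the entry to polyamines, had relative signals of 25.3, 27.8 and 29.7 in clone 1 and 33.5 and 37.1 in clone 3, against 48, 39.6 and 41 in the control. Clone 3 lay between the other groups. Clone 1 passed at -0.63 (SE 0.12, limma adjusted p = 0.0045) and clone 3 at -0.28 (SE 0.13) did not (limma adjusted p = 0.16). Oat, which links ornithine and glutamate, differed by 0.01 (SE 0.10) and 0.13 (SE 0.11). Of the 4 measured members of this group, 3 were thus lower in clone 1 and 2 in clone 3. These are 75% and 50% called, beside 31.1% and 30.2% of all genes.

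**Figure D3:**
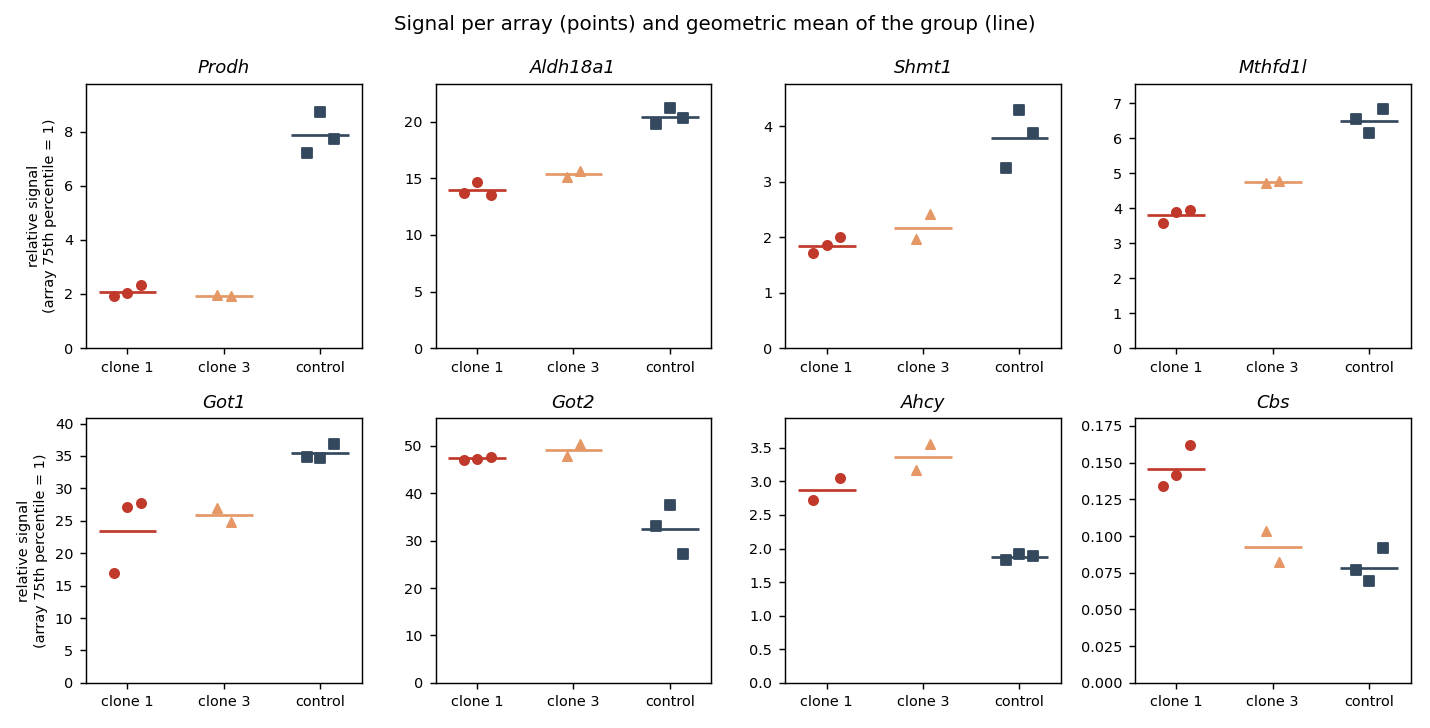
Relative signal (array 75th percentile set to 1, linear axis from 0) of 8 enzymes on each array of clone 1, clone 3 and control, with a line at the geometric mean of the group. Prodh, Aldh18a1, Shmt1, Mthfd1l and Got1 are lower in the knock-in arrays, Got2 and Ahcy are higher, and Cbs stands higher in clone 1 than in both other groups.

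Branched-chain aminotransferases move nitrogen from leucine, isoleucine and valine to glutamate, Bcat1 in the cytosol and Bcat2 in mitochondria. Bcat1 had relative signals of 11.9, 14.1 and 14.2 in clone 1 and 16.6 and 15.4 in clone 3, against 9.54, 11.3 and 10.9 in the control. The knock-in arrays lay above all control arrays, and clone 3 passed at 0.60 (SE 0.13, limma adjusted p = 0.010) while clone 1 at 0.34 (SE 0.12) did not (limma adjusted p = 0.060). Without clone 3 replicate 1 the clone 3 call was lost (limma adjusted p = 0.059), and without clone 1 replicate 1 the clone 1 difference passed (0.42, 0.043). Bcat2 differed by 0.38 (SE 0.20) and 0.10 (SE 0.23) and overlapped between groups.

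Several members have more than 1 probe, and for these the brightest probe stood for the gene. Among the 18 members with several tested probes, all probes had the same sign in 10 in clone 1 and in 11 in clone 3, and opposite signs in the other 8 and 7. Of the called members 6 had several tested probes in clone 1, 4 of them with 1 sign, and 4 in clone 3, 1 of them with 1 sign. Every probe passed as lower in clone 1 for Shmt1 (-1.03 and -0.61), Got1 (-0.60 and -0.54) and Odc1 (-0.63 and -0.77). The second Odc1 probe also passed in clone 3, at -0.63 (limma adjusted p = 0.021), while the second Shmt1 probe did not (-0.36, limma adjusted p = 0.092). For Shmt2 the second probe had the same sign in clone 1 (-0.33) and did not pass.

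For other members the probes disagreed. The probes of Glul gave -0.60, 0.03 and -0.15 in clone 1 and -0.28, 0.57 and 0.40 in clone 3, and of those in clone 3 the one at 0.57 passed as higher (limma adjusted p = 0.027). Asns gave -0.66 on one probe and 0.01 on the other in clone 3, and Mtr gave 0.45 and -0.11. Mthfd1 gave -0.45 and 0.14 in clone 1. Bcat1 gave 0.60, 1.04 and -0.44 in clone 3, of which 0.60 and 1.04 passed. The calls of Glul, Asns, Mtr, Mthfd1 and Bcat1 thus rest on the choice of probe, and whether the probes read different transcripts was not tested. Of the called members left, Prodh, Ahcy, Cbs, Aldh18a1, Got2, Psph and Aldh1l1 have a single tested probe, and Mthfd1l has a second probe at background.

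**Figure D4:**
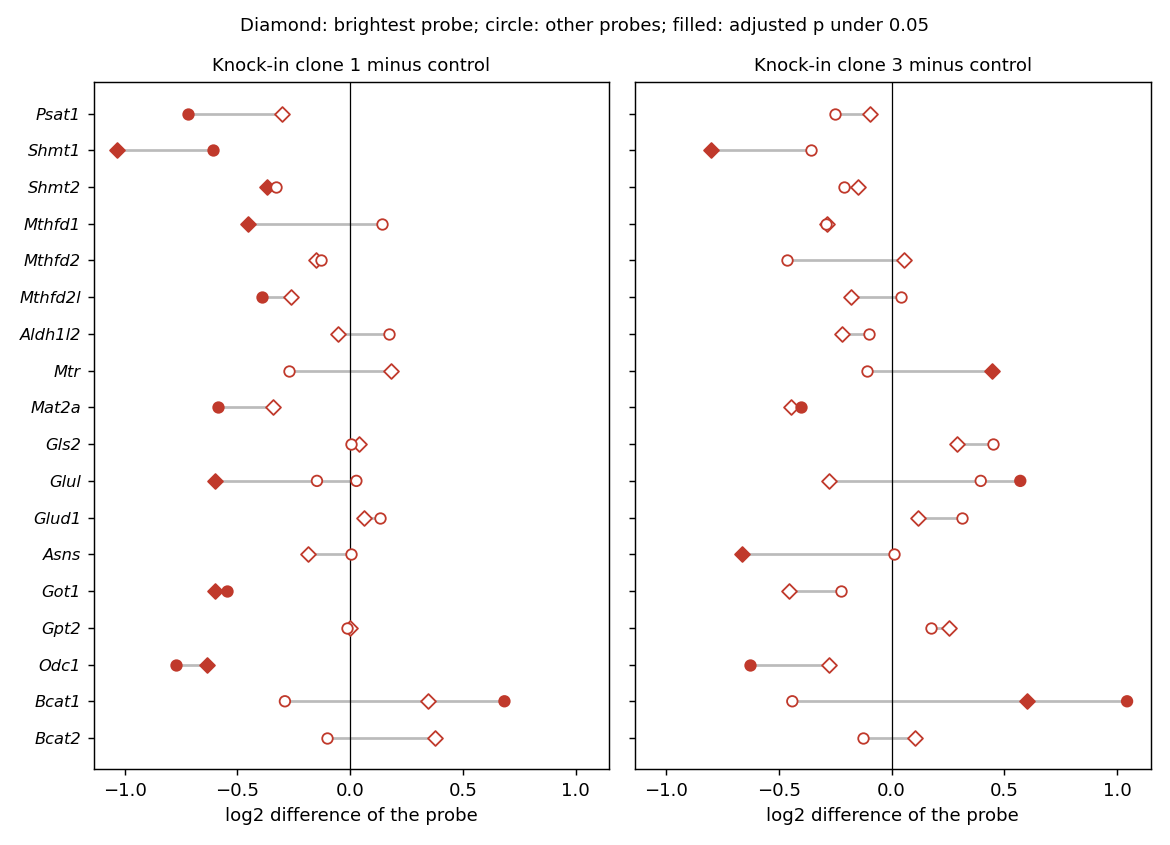
Log2 difference from the control of every detected probe of members with more than 1 detected probe, in clone 1 (left) and clone 3 (right). Diamonds are the brightest probe, circles the others, and filled symbols passed at an adjusted p under 0.05 in a fit over all probes. The probes of Shmt1 lie together on the lower side, while those of Bcat1, Glul and Asns are spread to both sides of zero or up to it.

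For 5 pairs of enzymes that run the same reaction in different compartments or as close relatives, the difference between the 2 genes was compared on each array, in 10 tests. The log2 level of Got1 minus that of Got2 differed from the control by -1.15 in clone 1 and -1.06 in clone 3, without overlap. Shmt1 minus Shmt2 differed by -0.66 in clone 1 and -0.65 in clone 3, again without overlap. For Aldh1l1 and Aldh1l2 no value is given in clone 1, where Aldh1l1 was not well above background, and clone 3 overlapped with the control. Bcat1 minus Bcat2 differed by -0.03 in clone 1 with overlap and by 0.50 in clone 3 without it. The pair Mthfd2 and Mthfd2l overlapped with the control in both clones. With 3 against 3 or 2 against 3 arrays the exact two-sided permutation test cannot go below p = 0.1, or 0.2 after adjustment over the 10 tests, so no pair could pass.

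Between the clones no member differed at a limma adjusted p under 0.05, where 19 of all 25353 genes did (0.0749%). At an unadjusted p under 0.05 there were 5 members, Cbs, Aldh1l1, Mthfd1l, Odc1 and Asns, beside 2734 of all genes (10.8%). Clone 3 minus clone 1 gave 0.36 for Odc1 (SE 0.13) and 0.32 for Mthfd1l (SE 0.11). For Aldh1l1 no fold is given, since it was well above background on no clone 1 array and on only 1 of 2 clone 3 arrays (fitted limma adjusted p = 0.34). The median over members was 0.14, beside 0.00 over all genes. Clone 3 lay wholly above clone 1 for 14 members and wholly below it for 2, where 14.1% and 14.4% of all genes did so. The SE of this contrast was 0.11 to 0.26 among members, so differences of the sizes listed were near the limit of what 2 against 3 arrays can show.

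The clone 1 arrays lie in both rows of the slide, while the 3 control arrays lie in row 1 and both clone 3 arrays in row 2. All 14 members called in clone 1 had the same sign on the clone 1 array of row 1 as on the 2 arrays of row 2. The smallest difference on the row 1 array was 0.38 in size. These members were called from the same arrays, and both differences use the same controls, so the shared sign is no separate check on slide row. The row 1 array is clone 1 replicate 1, which had the low spike-in signal given above. On its brightest probe Mat2a, which was not called, had -0.03 in row 1 and -0.50 in row 2, and Got1 had -1.06 and -0.37. With row as a term in the fit, clone 1 had 1 higher call (Cbs) and 8 lower calls, and clone 3 had 0 higher and 2 lower calls (Prodh and Got1). In clone 1 the calls of Ahcy, Got2, Glul, Mthfd1 and Shmt2 were lost. The Shmt1 difference in clone 3 was then -0.97 with a limma adjusted p of 0.077. Got1, at -0.45 and not called in clone 3 without the row term, moved to -1.15 (limma adjusted p = 0.012). Only clone 1 lies in both rows, so the row term rests on its 1 array of row 1, which was the lowest Got1 array. Within row 1, where clone 1 has 1 array and its spread is taken from the control arrays, 5 members were lower and 0 higher. Clone 3 and the control share no row, so their comparison has no within-row value.

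**Figure D5:**
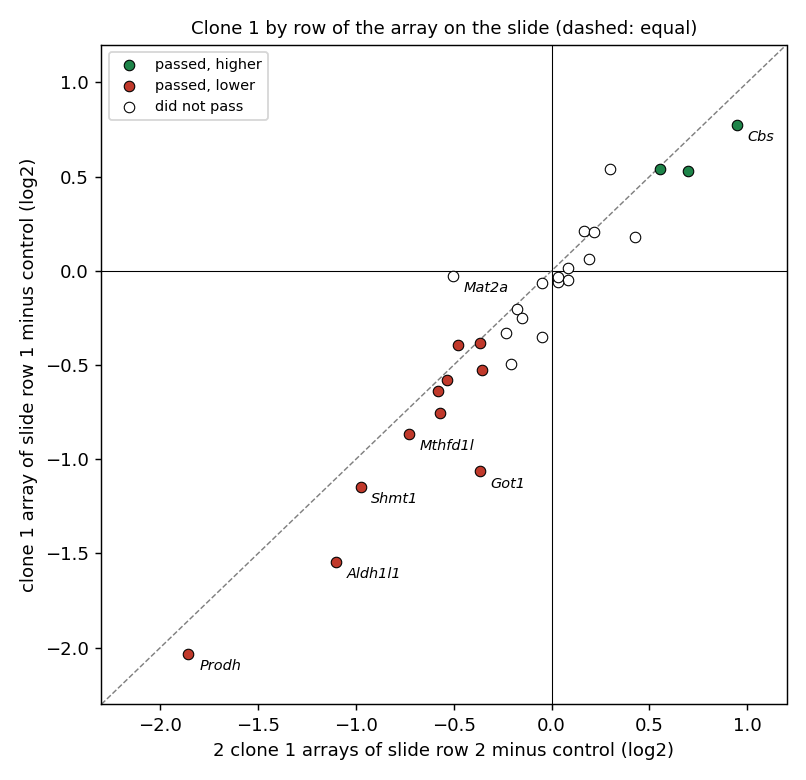
Log2 difference from the control for the 30 enzymes on the clone 1 array of slide row 1 (vertical axis) against the mean of the 2 clone 1 arrays of row 2 (horizontal axis), with equality dashed. The 14 called members, filled, have the same sign on both axes, and Got1 lies farther from zero in row 1. The members were called from these same arrays.

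The surrounding pathway genes were taken from a list of 93, also chosen with earlier results of these data known, of which 77 were tested. Clone 1 had 21 of these higher, 15 lower and 41 that did not pass. Clone 3 had 18 of them higher, 13 lower and 46 that did not pass. These are 46.8% and 40.3% called, beside 31.1% and 30.2% of all genes and 36.2% and 32.8% of tested genes with a symbol. The median was 0.06 in clone 1 and 0.10 in clone 3. All pathway genes named in the following passed in both clones. With slide row as a term 12 of the 27 still passed in clone 1 (Cad, Dbt, Gnmt, Mthfs, P4ha2, Pfas, Sardh, Sat1, Slc46a1, Sqor, Suox and Tyms) and 9 in clone 3 (the same genes without Cad, Mthfs and Sardh). The others lost their call. Among those still called, Dbt entered the test only through the knock-in groups. In proline breakdown, Aldh4a1, which completes the conversion to glutamate that Prodh starts, had relative signals of 2.53, 2.39 and 2.11 in clone 1 and 2.27 and 2.36 in clone 3, against 3.47, 3.51 and 3.73 in the control. It was lower by a log2 difference of -0.61 (limma adjusted p = 0.0031) and -0.63 (0.0053), which with row as a term gave limma adjusted p of 0.062 and 0.22. P4ha2, a collagen prolyl hydroxylase, differed by -1.41 and -1.39, each past the threshold.

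Of 7 genes of purine and thymidylate synthesis, pathways that take up one-carbon units, 2 were lower and none higher in each clone. Their share of 28.6% was near that of all genes. Tyms, thymidylate synthase, had relative signals of 11.8, 13.6 and 13.7 in clone 1 and 14.8 and 13.1 in clone 3, against 30.9, 30 and 30.1 in the control. No knock-in array reached 15, and the differences were -1.22 (limma adjusted p = 7.1e-05) and -1.13 (0.00028). Pfas, of purine synthesis, differed by -0.82 and -0.75. In glycine cleavage and folate handling, clone 1 had 5 of 14 genes higher and 3 lower, and clone 3 had 4 of 14 higher and 2 lower. The shares were 57.1% and 42.9%, beside 31.1% and 30.2% of all genes. Slc46a1, a folate transporter, differed by 1.33 and 0.93, Mthfs, which returns 5-formyl folate to use, by 1.03 and 1.21, Mtfmt, which formylates the mitochondrial initiator tRNA, by 0.62 and 0.51, and Ggh, which trims folate polyglutamates, by 0.43 and 0.53. The clone 3 call of Mtfmt was lost without clone 3 replicate 2 (limma adjusted p = 0.051). Sardh, sarcosine dehydrogenase, was lower by fitted differences of -2.25 and -1.77, and was above background on 1 of 3 clone 1 arrays, both clone 3 arrays and all control arrays. 

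Of 9 tested genes of cysteine and sulphur handling, 3 were higher and 2 lower in each clone. This share of 55.6% stands beside 31.1% and 30.2% of all genes. Suox, sulphite oxidase, had relative signals of 4.79, 4.31 and 4.79 in clone 1 and 3.48 and 3.53 in clone 3, against 1.33, 1.38 and 1.7 in the control. Sqor, which oxidises sulphide, had 8.34, 10.5 and 9.08 in clone 1 and 10.3 and 9.47 in clone 3, against 3.55, 3.81 and 3.45 in the control. Every knock-in array was above every control array for both, at 1.66 and 1.26 for Suox (limma adjusted p = 2.5e-05 and 0.00029) and 1.36 and 1.46 for Sqor (6.4e-05 and 0.00011). Tst, a sulphurtransferase, differed by -0.69 and -0.58, Gss, glutathione synthetase, by 0.41 and 0.40, and Gclm, the modifier subunit of the enzyme before it, by -0.32 and -0.44. In the methionine cycle, Gnmt, which methylates glycine, differed by -1.20 and -1.18, and Ahcyl2, a relative of Ahcy, by 0.43 and 0.57. In clone 1 the Gclm call was lost without any 1 control or clone 1 array (limma adjusted p of 0.071 to 0.11), and the Gss call without control replicate 1 or 3 or clone 1 replicate 2 or 3 (0.051 to 0.071). In clone 3 the Gss call was lost without any 1 array but control replicate 2 (0.053 to 0.19), that of Tst without control replicate 2 or 3 or clone 3 replicate 1 (0.064 to 0.19), and that of Gclm without clone 3 replicate 2 (0.097). Ahcyl2 lost its call in clone 1 without control replicate 1 or clone 1 replicate 3 (0.052 and 0.051) and in clone 3 without clone 3 replicate 2 (0.052).

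Users of the glutamine amide went both ways. Cad, the first enzyme of pyrimidine synthesis, had relative signals of 16.9, 14.7 and 17 in clone 1 and 17.4 and 16.8 in clone 3, against 25.9, 31.4 and 35.8 in the control, without overlap. Its differences were -0.93 (limma adjusted p = 0.0013) and -0.85 (0.0041). Ctps, CTP synthase, differed by -0.50 and -0.52, and its relative Ctps2 by 0.40 and 0.33, with Ctps2 turning to -0.02 and -0.01 when all its probes were averaged. Gmps, of GMP synthesis, differed by 0.50 and 0.65, and Nadsyn1, of NAD synthesis, by 0.64 and 0.63. The Gmps call was lost in clone 1 without any 1 array but control replicate 2 (limma adjusted p of 0.061 to 0.11) and in clone 3 without either clone 3 array (0.10 and 0.090). Ctps2 lost its clone 3 call without any 1 of the 8 arrays (0.055 to 0.13), Ctps without clone 3 replicate 1 (0.064) and Nadsyn1 without clone 3 replicate 2 (0.063).

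In polyamine turnover, Sat1, the acetyltransferase that opens polyamine breakdown, had relative signals of 10.9, 11 and 10.6 in clone 1 and 9.34 and 10.5 in clone 3, against 5, 4.97 and 4.79 in the control. It was higher by 1.14 (limma adjusted p = 5.8e-05) and 1.01 (0.00028), without overlap, and Oaz2, an antizyme that restrains Odc1 protein, by 0.53 in each clone. The Oaz2 call in clone 3 was lost without clone 3 replicate 2 (limma adjusted p = 0.079). Of 12 genes of branched-chain breakdown, clone 1 had 5 higher and 1 lower, while clone 3 had 3 higher and 1 lower. Their shares were 50% and 33.3%, beside 31.1% and 30.2% of all genes. Dbt, a subunit of the branched-chain ketoacid dehydrogenase, was not well above background on any control array, so it entered the test only through the knock-in groups. It is among the genes counted as higher in each clone. Dbt was at least 3.6-fold higher in clone 1 and at least 3.58-fold higher in clone 3. Bckdha, another subunit, differed by 0.61 and 0.77, Mccc1, of leucine breakdown, by 0.64 and 0.68, and its partner subunit Mccc2 by -0.34 and -0.44. The Mccc2 call was lost in clone 1 without any 1 array but control replicate 1 (limma adjusted p of 0.055 to 0.13), and in clone 3 without control replicate 2 or 3 or either clone 3 array (0.062 to 0.12). That of Mccc1 was lost in clone 1 without control replicate 1 or 2 or clone 1 replicate 2 or 3 (0.055 to 0.058), and in clone 3 without control replicate 1 or 2 or clone 3 replicate 1 (0.058 to 0.14).

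The list of 12 regulators of the amino acid response and of metabolism includes an enzyme, Chac1. Of the 12 listed, 11 were tested. Clone 1 had 3 higher and 2 lower, while clone 3 had 1 higher and 2 lower, shares of 45.5% and 27.3% beside 31.1% and 30.2% of all genes. Atf4, a factor controlled largely at translation, had relative signals of 134, 175 and 194 in clone 1 and 207 and 218 in clone 3, against 216, 172 and 175 in the control. Both clones overlapped with the control, and clone 3 lay above clone 1, by 0.36 (limma adjusted p = 0.51). Ddit3, the stress factor CHOP, had 10.3, 9.01 and 10.7 in clone 1 and 9.78 and 11.6 in clone 3, against 6.22, 5.9 and 6.97 in the control. All knock-in arrays exceeded the control, with differences of 0.65 (limma adjusted p = 0.0046) and 0.75 (0.0046). Cebpg, a partner of Atf4, was lower by a log2 difference of -0.50 and -0.38, and Eif2ak4, the kinase that senses uncharged tRNA, by -0.30 and -0.46. Eif2ak3, the kinase of the endoplasmic reticulum, was higher in clone 1 (0.58) and did not pass in clone 3 (0.24), and likewise Chac1, which degrades glutathione (0.34 and 0.32). The clone 1 call of Eif2ak4 was lost without any 1 control or clone 1 array (limma adjusted p of 0.079 to 0.13), and that of Chac1 without any 1 control array or clone 1 replicate 2 or 3 (0.068 to 0.11). In clone 3 Cebpg lost its call without control replicate 1 or 3 or either clone 3 array (0.057 to 0.098), and Eif2ak4 without clone 3 replicate 1 (0.087). With row as a term Ddit3 and Eif2ak3 passed in clone 1, and no regulator passed in clone 3. Atf5, Trib3, Cebpb, Myc and Nfe2l2 passed in neither clone, with Myc at -0.35 (limma adjusted p = 0.053) and -0.17 (0.38). Mycn was not tested. Of the measured members whose promoter held the Atf4-type core, printed above, Got1 was lower in clone 1 and Asns was lower in clone 3. Of those with the E-box, Aldh18a1 was lower in both clones, Cbs was higher in clone 1 and Ass1 passed in neither.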

How the data were processed

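RNA of 8 cell samples was hybridized to 1-colour arrays of 62976 spots. The deposited intensity values are processed signals, which are linear and background-subtracted. The submitters' processing notes name Agilent Feature Extraction (11.5.11) as their source, and the authors' median spot and background intensities served 1 alternative. The files' design build is older than GRCm38.p6, so gene coordinates come from the RefSeq promoter table alone.

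Control spots (3671) were dropped, as were 114 to 242 spots per array that carried a flag for uneven or outlying signal. Log2 was taken of the rest, less the 75th percentile of the array (268 to 377 in intensity), and averaged over spots of a probe. Accessions were named through RefSeq, giving 32994 of 56605 probes a symbol, and the brightest probe represented a gene. The test took genes detected well above background throughout at least 1 group. The 3 groups were fitted together with limma 3.58.1 in R 4.3.3 (lmFit, contrasts, eBayes; two-sided; Benjamini-Hochberg over 25353; threshold 0.05). The fit was tested on simulated data. The number of arrays limits the precision.

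Members and gene lists were chosen with earlier results of these data known. All members and regulators are named. Of the other pathway genes, up to 5 per class that passed with the same sign in both clones are named, in order of the smaller of their 2 differences. Alternatives are given in the closing section. Fits of each probe on its own, and counts of members whose probes share a sign, were added after the data were seen.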

Additional observations from a re-analysis of the deposited data

How the results depend on the processing

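Normexp background, quantile and median scaling, 2 other filters, averaging a gene's probes, array weights, a variance trend, array row, a threshold of 0.01, fits of 2 groups, and each array left out were tried. Prodh passed in both clones under every alternative run, and Shmt1 in clone 1 under every alternative and in clone 3 under all but the row term. Members lower in clone 1 numbered 6 with no filter on dim probes, 5 within row 1, 6 at a threshold of 0.01 and 7 to 11 with 1 array left out, against 11. Of 32 calls named among other pathway genes and regulators in clone 1, 14 passed with row as a term and 24 in every fit with 1 array left out. In clone 3 these were 9 and 16 of 30. With median scaling Chac1, Eif2ak4, Gclm and Mccc2 lost their clone 1 calls, and Cebpg, Ctps2, Eif2ak4, Gclm, Mccc2 and Tst their clone 3 calls. Members higher in clone 1 numbered 1 with row as a term and 0 within row 1. Members lower in clone 3 numbered 3 with median scaling, 2 with no filter, 2 with row as a term, 2 at a threshold of 0.01 and 2 to 7 with 1 array left out, against 5. Members higher in clone 3 numbered 2 with no filter, 0 with row as a term, 1 at a threshold of 0.01, 2 when only members whose probes share a sign were counted and 2 to 4 with 1 array left out, against 4. Over all genes, calls in clone 1 numbered 4349 with row as a term, 3598 within row 1 and 4714 at a threshold of 0.01. In clone 3 they numbered 5103 with no filter, 2068 with row as a term and 4325 at a threshold of 0.01. Between the clones they numbered 46 with normexp, 7 with no filter, 62 with a variance trend, 0 within row 2, 11 at a threshold of 0.01 and 8 to 61 with 1 array left out. Ctps2 turned to -0.019 in clone 1 and -0.011 in clone 3 with the mean of all probes, whose other probes differ from the brightest. The cause of the other changes was not tested, apart from fewer arrays or a stricter threshold where the alternative has them. The median over members stayed between -0.27 and -0.14 in clone 1 and between -0.20 and -0.06 in clone 3. No paired analysis was possible because the labels give no replicate numbers.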
